A study of Drosophila melanogaster with 24 samples.

Results

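Chromatin accessibility in brains of adult female Drosophila melanogaster was compared between day 10 and day 1 of adult life, counted from eclosion, in the H3.3H3.2 and H3.3S31A genotypes pooled. The comparison set 6 libraries of day 10 (3 of H3.3H3.2 and 3 of H3.3S31A) against 6 of day 1, with genotype as a factor, and used 12 of the 24 libraries of the study and every peak. Both genotypes are altered at the source of the replacement histone H3.3: by its name, H3.3H3.2 replaces it with the replicative H3.2, whereas in H3.3S31A serine 31 of H3.3 is alanine. No library of the comparison has unaltered H3.3, and the other 12 libraries come from the wild-type strain OreR and from H3.3null, by its name without H3.3, at the same ages. The study concerns the supply of histone H3 and the choice between H3.2 and H3.3 in development. The labels name no crosses, background strain, litters, batches or dates, and do not say that replicates came from separate preparations, so the p-values measure the spread between these libraries, which may be technical.

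ATAC-seq reads out open chromatin through the insertions of a transposase, and its peaks mark promoters, enhancers and other sites at which proteins hold DNA free of nucleosomes. Adult fly neurons are post-mitotic, and new nucleosomes outside replication are built mainly from H3.3 where it is present. In the days after eclosion the brain leaves its developmental state: the steroid hormone ecdysone, whose pulses drive metamorphosis, has fallen, circuits are refined by use, and genes that patterned the embryo and larva are kept silent by Polycomb group proteins.

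The values are read counts in 11145 peaks shared by all libraries, and levels are given in CPM, the counts scaled to library size with TMM factors over the 24 libraries. Totals in the 12 compared libraries ran from 3021672 (H3.3S31A day 10 replicate 3) to 4849703 (H3.3H3.2 day 1 replicate 2), and 11143 peaks passed the filter on low counts. Between libraries, the median Pearson's r of log2 CPM was 0.974 over 12 pairs within a group, 0.969 over 18 pairs of a genotype at different days and 0.965 over 18 pairs of the same day and different genotypes, and these ranges overlapped. Every one of the 12 neuron marker genes had at least 1 peak, as did 6 of 10 glia, 9 of 19 photoreceptor and eye, 2 of 16 muscle, 7 of 15 fat body, 7 of 12 haemocyte and 3 of 9 trachea markers. Among those without a peak were alrm, Mdr65, Gli and Indy of glia, ninaE, Arr1 and Rh6 of the photoreceptors and Mhc and Act88F of muscle. Hml and NimC1 of haemocytes and btl of trachea also lacked one. A missing peak therefore does not show that a cell type is missing. Library values summed over marker peaks overlapped between the days in each list, with 8061 to 8464 CPM at day 1 and 8071 to 8744 CPM at day 10 for neurons and 880.2 to 1029.8 CPM against 866 to 1025.5 CPM for glia. The same sums were 1321 to 1432 and 1279 to 1375 CPM for photoreceptor and eye markers, 425 to 454 and 397 to 455 CPM for muscle, 963 to 1008 and 947 to 1034 CPM for fat body, 1617 to 1709.7 and 1561 to 1719.9 CPM for haemocyte and 1265 to 1436 and 1324 to 1405 CPM for trachea markers. In bulk brain tissue, fewer cells of a type and less open chromatin per cell cannot be told apart.

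A modest set of peaks changed between day 1 and day 10, and more of them were lower than higher at day 10. Of the 11143 peaks tested, 385 (3.46%) were called at an adjusted p under 0.05 by edgeR's quasi-likelihood test with Benjamini-Hochberg adjustment, 259 (2.32%) lower and 126 (1.13%) higher at day 10. The changes were small: the median log2 fold change was -0.36 among the lower calls, a fall by 22.3%, and 0.32 among the higher calls, a rise by 24.7%. A log2 fold change of at least 0.5 in size was reached by 48 lower and 3 higher calls, and the single peak past 1 lay in dar1. Over all tested peaks the median log2 fold change was -0.0043, and the median standard error was 0.085. In 190 of the 259 lower calls and 86 of the 126 higher calls, the 3 libraries of day 10 lay outside the range of the 3 of day 1 in both genotypes, as 2.38% and 1.82% of all tested peaks did in these directions. Over all 12 libraries at once, the 6 of each day did not overlap in 147 lower and 57 higher calls, against 1.58% and 0.879% of tested peaks. Summed over the 259 lower peaks, the level was 25659 to 27783 CPM in the 6 libraries of day 1 and 19667 to 21652 CPM in those of day 10, a separation that the choice of these peaks fixed.

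**Figure D1:**
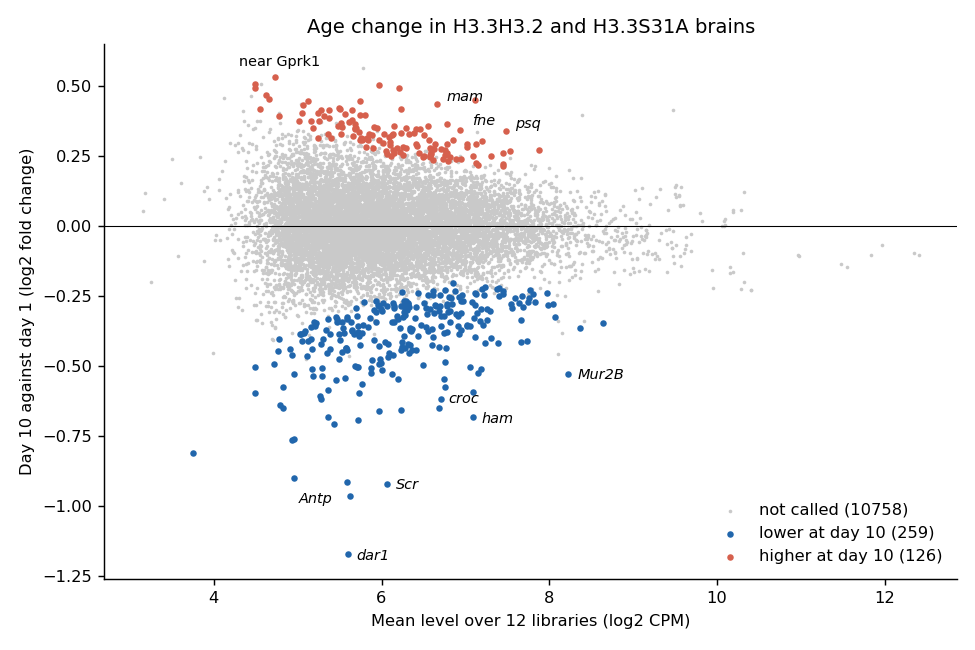
Log2 fold change of day 10 against day 1 in H3.3H3.2 and H3.3S31A brains (y axis) against the mean log2 CPM over the 12 libraries (x axis), 1 point per tested peak. The 259 lower calls (blue) reach further from 0 than the 126 higher calls (red), and the lowest point is the peak in dar1 at -1.17.

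The 5 peaks that fell with the smallest p lay in Scr, dar1, ham, Antp and croc. At chr3R:6848483-6849007, inside Scr (Sex combs reduced, a Hox gene of the labial and first thoracic segments), the level was 104, 105 and 105 CPM in H3.3H3.2 and 71.0, 71.1 and 69.1 CPM in H3.3S31A at day 1. At day 10 the same libraries gave 49.7, 54.7 and 58.6 CPM and 33.5, 42.5 and 38.7 CPM, a log2 change of -0.92 ± 0.0741 (SE, adjusted p = 4.25e-09). Every day 10 library was below every day 1 library, and within a day the H3.3H3.2 libraries stood above those of H3.3S31A.

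The largest change was at chr3L:3632883-3633259, inside dar1 (dendritic arbor reduction 1, a Krüppel-like zinc finger factor needed for dendrite growth). Its day 1 levels were 78.0, 66.7 and 68.4 CPM in H3.3H3.2 and 63.0, 68.7 and 56.9 CPM in H3.3S31A. At day 10 they were 30.0, 41.1 and 29.5 CPM and 24.2, 30.7 and 22.7 CPM, a change of -1.17 ± 0.0996 (SE, adjusted p = 7.86e-09), or a fall by 55.7%. Every day 10 library was below every day 1 library.

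At chr2L:18782711-18783878, in hamlet (ham), a PR domain zinc finger factor that sets neuronal fate and dendrite form, the day 1 levels were 188, 188 and 184 CPM in H3.3H3.2 and 149, 151 and 146 CPM in H3.3S31A. They were 115, 119 and 118 CPM and 85.6, 104 and 86.8 CPM at day 10, with a change of -0.68 ± 0.0611 (SE, adjusted p = 1.78e-08) and no overlap. The peak in Hr4 at chrX:1988557-1989362 held 155, 157 and 142 CPM in H3.3H3.2 and 108, 105 and 112 CPM in H3.3S31A at day 1. Hr4 is a nuclear receptor of the ecdysone response, and its day 10 levels were 94.8, 105 and 91.8 CPM and 69.4, 85.2 and 76.1 CPM, a change of -0.58 ± 0.067 (SE, adjusted p = 2.70e-06). The days did not overlap, although the lowest day 1 libraries, all of H3.3S31A, lay close above the highest day 10 library, one of H3.3H3.2.

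Among the 15 lower peaks with the smallest p, others lay in croc (chr3L:21476456-21477164, -0.65), a forkhead factor, 1054 bp from OdsH (chrX:17788994-17789956, -0.60), a homeobox gene, and 5863 bp from foxo (chr3R:14050226-14051082, -0.53), the forkhead factor restrained by insulin signalling. They also lay in L (chr2R:14457922-14458448, -0.62), which acts in eye growth, in pnt (chr3R:23292996-23293526, -0.55), an ETS factor downstream of the epidermal growth factor receptor, and in Mur2B (chrX:1534998-1536401, -0.53), which encodes a mucin-related protein. Adjusted p-values ran from 2.67e-07 at croc to 1.51e-05 at Mur2B. At each of these 6 peaks, the 6 libraries of day 10 lay below the 6 of day 1, for example from 110.3 to 135 CPM at day 1 and from 68.8 to 86.4 CPM at day 10 at croc and from 323 to 427 CPM at day 1 and from 218 to 267 CPM at day 10 at Mur2B. No alternative setting and no left-out library ended the call at any of the 10 peaks described so far.

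**Figure D2:**
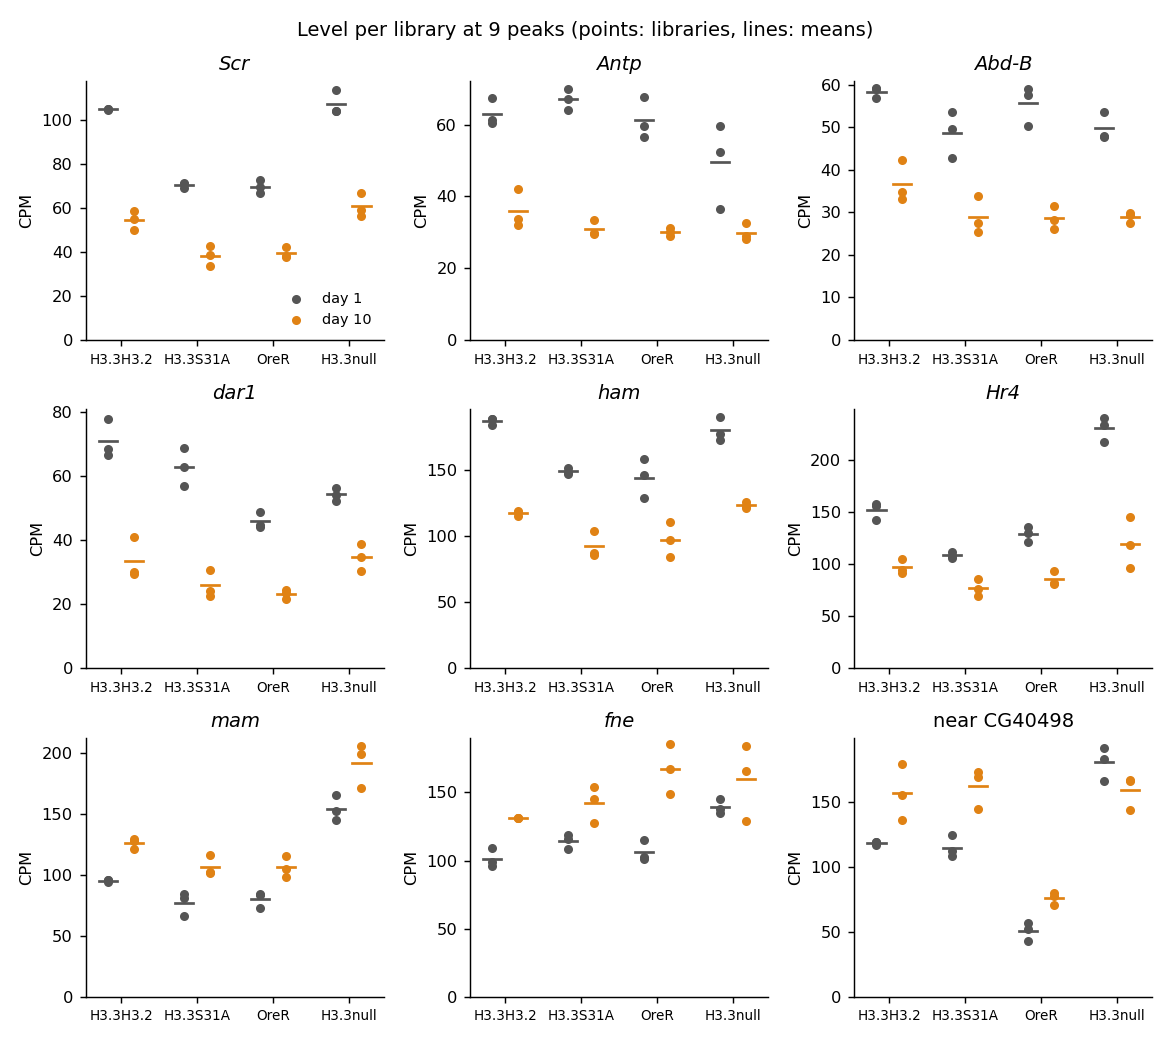
Level in CPM of each library (points) and group mean (lines) at 9 peaks, by genotype, with day 1 in grey and day 10 in orange. At Scr, Antp, Abd-B, dar1, ham and Hr4 the day 10 points lie below those of day 1 in all 4 genotypes, and at the peak near CG40498 they lie above in all but H3.3null.

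The Hox genes specify segment identity along the body and lie in 2 complexes on chromosome arm 3R. The intervals of these complexes, which also hold other genes, carried 27 of the 259 lower calls. Peaks overlapping the Hox genes or within 1000 bp of their ends had 8 lower calls among 14 (Antennapedia complex) and 9 among 14 (Bithorax complex). In the Antennapedia complex, from lab to Antp (3R, 6661427 to 6999228), 14 of 29 tested peaks fell and 1 rose, with a median log2 change of -0.34 over the 29. In the Bithorax complex, from Ubx to Abd-B (3R, 16656623 to 16972236), 13 of 26 fell and 0 rose, with a median of -0.25. For comparison, 2.32% of all tested peaks fell, and outside both intervals 232 of 11088 peaks fell and 125 rose. Leaving out 1 library at a time gave 13 to 14 and 12 to 13 lower calls in the 2 intervals. Summed over the 55 peaks of both intervals, the level was 4027.5 to 4115 CPM at day 1 and 3410.4 to 3594 CPM at day 10 in H3.3H3.2, and 3934 to 4070.1 CPM against 3199 to 3443 CPM in H3.3S31A, without overlap.

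Within the Antennapedia complex every one of the 5 Hox genes had a lower peak. The largest fall was inside Antp (Antennapedia, which gives the second thoracic segment its identity) at chr3R:6930448-6930777, where CG46458 also lies. Its day 1 levels were 61.4, 60.5 and 67.3 CPM in H3.3H3.2 and 67.1, 70.1 and 64.1 CPM in H3.3S31A, and its day 10 levels were 32.2, 42.1 and 33.7 CPM and 33.3, 29.4 and 29.7 CPM, a change of -0.96 ± 0.0901 (SE, adjusted p = 3.89e-08). The groups did not overlap, and both genotypes held similar levels at each day. The single peak of Dfd changed by -0.39, that of lab by -0.50 and 1 of the 3 at pb by -0.51, all called, these 3 genes acting in the head. A peak 3156 bp from Scr (chr3R:6853137-6853316) had 31.3, 43.8 and 44.7 CPM at day 1 and 19.0, 21.5 and 25.1 CPM at day 10 as lowest, median and highest library and a change of -0.90 ± 0.113 (SE, adjusted p = 8.70e-06).

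Scr also held the only higher call of the complex, at chr3R:6824786-6825689, with 56.7, 69.3 and 82.3 CPM at day 1 and 73.1, 89.6 and 98.9 CPM at day 10 as lowest, median and highest library and a change of 0.35 ± 0.0712 (SE, adjusted p = 0.00341). The days did not overlap within a genotype but did over both. The next peak of Scr (chr3R:6827205-6827667) had a log2 change of 0.34 and missed the threshold (adjusted p = 0.0673). Within Scr, 2 of 4 peaks therefore fell and 1 rose. The weakest Hox call of this complex, in Antp at chr3R:6966686-6966957 (-0.36), was lost with 6 of the 12 libraries left out in turn, H3.3H3.2 day 10 replicate 1, day 1 replicates 2 and 3, and H3.3S31A day 10 replicates 1 and 3 and day 1 replicate 1, with an adjusted p of up to 0.0827.

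In the Bithorax complex, Abd-B, the most posterior Hox gene, had 6 lower calls among 10 peaks, Ubx 2 of 2 and abd-A 1 of 2. At chr3R:16948592-16948867 in Abd-B the day 1 levels were 59.1, 59.2 and 56.9 CPM in H3.3H3.2 and 49.7, 53.7 and 42.7 CPM in H3.3S31A. They were 33.2, 42.3 and 34.7 CPM and 33.8, 27.6 and 25.4 CPM at day 10, a change of -0.71 ± 0.0927 (SE, adjusted p = 1.51e-05), and the days did not overlap in either genotype or over both. The peak at chr3R:16715589-16715931 in Ubx, which sets the third thoracic segment, changed by -0.76 ± 0.11 (SE, adjusted p = 6.87e-05), and the levels ran from 33.6 to 44.5 CPM at day 1 and from 19.7 to 28.4 CPM at day 10. Further calls lay in the iab region between abd-A and Abd-B, where lncRNA:iab8 and MSAmiP overlap each other, so reads there cannot be given to 1 of them. The largest was at chr3R:16886391-16886824, with 49.5, 63.5 and 80.0 CPM at day 1 and 28.7, 33.2 and 39.7 CPM at day 10 as lowest, median and highest library and a change of -0.91 ± 0.104 (SE, adjusted p = 2.70e-06). The Abd-B call with the largest p (chr3R:16960285-16960570, -0.41) was lost without any 1 of 9 libraries, all but H3.3H3.2 day 1 replicate 3, day 10 replicate 2 and H3.3S31A day 10 replicate 1, with an adjusted p of up to 0.118.

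**Figure D3:**
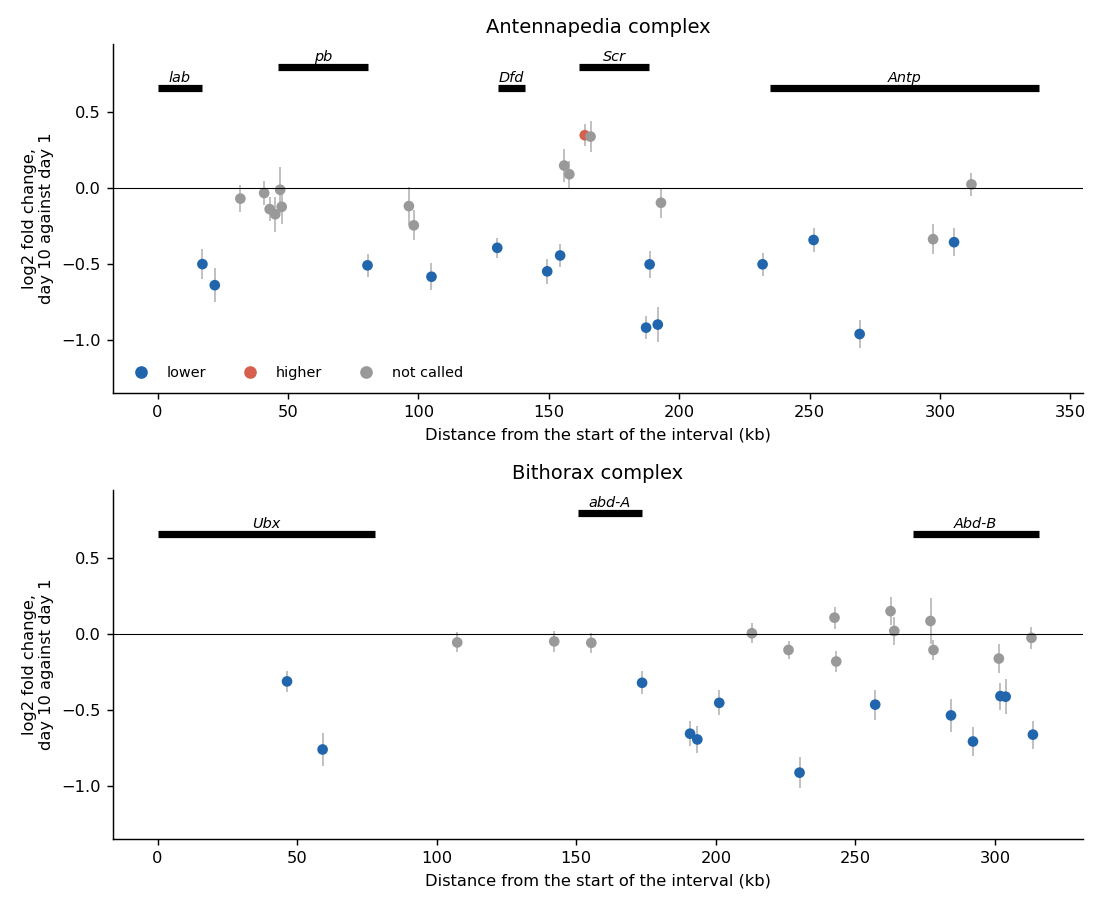
Log2 fold change of day 10 against day 1 (y axis, bars 1 SE) at each tested peak of the 2 Hox complexes against distance from the start of the interval in kb (x axis), with the 8 Hox genes as black bars. Lower calls (blue) are spread along both complexes among peaks that were not called (grey), and the 1 higher call (red) lies in Scr.

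Lower calls were also counted over homeobox genes in general and 4 other families of transcription factors. These families were listed after values had been seen and are described by counts and medians, without a test of the family. The p-values of single peaks given below are no evidence for the choice of the families. Of 178 tested peaks at 82 homeobox genes, 46 (25.8%, against 2.32% of all tested peaks) fell and 1 rose, and 37 of these genes had a lower call. Their median log2 change was -0.14, and 39 to 46 peaks fell when 1 library at a time was left out. The list includes the Hox genes of both complexes, so their calls are counted here again. Peaks at the Hox genes had 8 lower calls among 14 (Antennapedia complex) and 9 among 14 (Bithorax complex), and the 1 higher call, in Scr. T-box genes had 4 lower calls among 5 peaks, at mid, H15 and bi, and a median of -0.32. Forkhead genes had 4 of 30 (13.3%, median -0.05) and Sox genes 1 of 16 (6.25%, median -0.16). Nuclear receptor genes had 7 of 118 (5.93%), all in Hr4 and svp, with 2 higher (1.69%), a median of 0.05 and 42 negative peaks. Over left-out libraries the forkhead count ranged from 2, without H3.3H3.2 day 10 replicate 1, to 5, and the higher count of the nuclear receptors from 1, without the same library, to 5. Without the Hox intervals and these 5 families, 186 of 10770 peaks fell and 123 rose.

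Among homeobox genes outside the Hox complexes, the peak in zfh2 on chromosome arm 4 (chr4:505073-505972) had 102, 125 and 147 CPM at day 1 and 77.6, 93.6 and 97.5 CPM at day 10 as lowest, median and highest library and changed by -0.49 ± 0.0678 (SE, adjusted p = 3.81e-05). A peak in ems, a head gap gene, fell from a median of 74.7 to 52.6 CPM (chr3R:13901532-13901896, -0.52). Peaks in Optix (chr2R:8030723-8031434, -0.38), which acts in eye formation, and Dll (chr2R:24814380-24814916, -0.40), which acts in limb formation, were lower as well. The peak in mid, a T-box factor, ran from 88.0 to 107 CPM at day 1 and from 61.1 to 82.4 CPM at day 10 (chr2L:5461255-5461770, -0.45 ± 0.0731 SE, adjusted p = 2.68e-04), and Sox102F on arm 4 ran from 159.8 to 197 CPM at day 1 and from 121 to 162 CPM at day 10 (chr4:807697-808517, -0.40). Days did not overlap at zfh2, ems, Optix and mid, and at Dll and Sox102F they did not overlap within a genotype. Of 77 tested peaks on arm 4, 6 (7.79%) were lower. Arm 3R held 78 of the 259 lower calls (30.1%) and 22.1% of the tested peaks, and 27 of the 78 are those of the Hox intervals.

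The peaks that rose had smaller changes and lay mostly inside genes. The smallest p belonged to a peak 2715 bp from CG40498 (chr2R:953967-954402), where the day 1 levels were 117, 119 and 119 CPM in H3.3H3.2 and 109, 125 and 112 CPM in H3.3S31A. At day 10 they were 156, 136 and 179.6 CPM and 169, 145 and 173 CPM, a change of 0.45 ± 0.0689 (SE, adjusted p = 1.30e-04) without overlap. The largest change was at chr2R:4471476-4471746, 416 bp from Gprk1, a kinase for G protein-coupled receptors, with 17.4, 21.1 and 28.4 CPM at day 1 and 27.4, 30.7 and 35.2 CPM at day 10 as lowest, median and highest library and a change of 0.53 ± 0.118 (SE, adjusted p = 0.00725). The days overlapped there over both genotypes, but not within either.

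In mam (mastermind, the co-activator of Notch target genes) 2 neighbouring peaks of the 24 tested were called higher. At chr2R:14011479-14012606 the level was 95.6, 95.7 and 94.1 CPM in H3.3H3.2 and 81.4, 66.2 and 84.2 CPM in H3.3S31A at day 1. At day 10 it was 129.9, 128 and 122 CPM and 102, 116 and 102 CPM, a change of 0.43 ± 0.0667 (SE, adjusted p = 1.30e-04), with every day 10 library above every day 1 library. The peak beside it (chr2R:14010130-14011227) changed by 0.36 ± 0.0718 (SE, adjusted p = 0.00252), its levels running from 73.9 to 111 CPM at day 1 and from 104 to 143 CPM at day 10, which overlap over both genotypes.

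Further higher calls are given for genes with known roles in neurons, tau and Fmr1 picked after their values were seen, while peaks in DIP-alpha and Shal, also neuronal genes, fell. In fne (found in neurons, an ELAV family RNA-binding protein) the peak at chrX:12929749-12930257 held 109, 95.7 and 98.7 CPM in H3.3H3.2 and 119, 116 and 108 CPM in H3.3S31A at day 1. It held 131, 131 and 131 CPM and 154, 127 and 146 CPM at day 10, a change of 0.34 ± 0.0627 (SE, adjusted p = 0.00114), and the days did not overlap. A second fne peak (chrX:12925309-12925898, 0.29) lost its call without H3.3H3.2 day 1 replicate 1 (adjusted p = 0.0578). These were the 2 higher calls among 11 tested peaks of fne. The peak in Ace, the acetylcholinesterase gene, ran from 69.9 to 77.4 CPM at day 1 and from 86.7 to 103 CPM at day 10 (chr3R:13242549-13243474, 0.33 ± 0.0664 SE, adjusted p = 0.00277), and that in tau, a microtubule-associated protein, ran from 37.0 to 43.7 CPM at day 1 and from 47.5 to 55.6 CPM at day 10 (chr3R:27639995-27640458, 0.37 ± 0.0818 SE, adjusted p = 0.0074). Of the 6 tested peaks of Fmr1, which encodes an RNA-binding repressor of translation at synapses, 2 were called higher. They changed by 0.38 and 0.39 (chr3R:10108300-10108616 and chr3R:10103021-10103639).

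The remaining higher peaks with the smallest p lay in psq (chr2R:10564115-10565301, 0.34), a BTB domain factor that binds GA-rich DNA, in gem (chr2R:10124001-10124533, 0.42), a factor of the CP2 family where CG46319 also lies, and in mamo (chrX:13988682-13989304, 0.33), a BTB zinc finger factor of mushroom body neurons. They also lay in lncRNA:CR46113 (chr3R:30272779-30273243, 0.50) and 12837 bp from Dip-B, a dipeptidase gene (chr3R:13798513-13799723, 0.35). At psq the levels ran from 146 to 172 CPM at day 1 and from 188 to 217 CPM at day 10, and at lncRNA:CR46113 from 45.6 to 55.6 CPM at day 1 and from 62.3 to 86.7 CPM at day 10. Days did not overlap at these peaks except near Dip-B, where they overlapped over both genotypes and not within either.

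Of the ecdysone response genes, 24 had 199 tested peaks, and 6 of these genes had a call. Lower calls numbered 5 (2.51%, beside 2.32% of all tested peaks), all in Hr4, which had 21 peaks, and the second of them (chrX:1988097-1988313) changed by -0.76 ± 0.102 (SE, adjusted p = 1.90e-05). Higher calls numbered 8 (4.02%, beside 1.13% of all tested peaks), at Eip74EF, Eip63E, Eip78C, Eip93F and ftz-f1, and the median log2 change of the list was 0.06. Eip74EF, an ETS factor induced directly by ecdysone, had 3 of its 19 peaks called. At chr3L:17569915-17570533 in Eip74EF the levels ran from 95.4 to 111 CPM at day 1 and from 116 to 135 CPM at day 10, a change of 0.30 ± 0.0624 (SE, adjusted p = 0.00352), and at chr3L:17576254-17577050 they ran from 204 to 224 CPM at day 1 and from 242 to 289 CPM at day 10, a change of 0.27 ± 0.0625 (SE, adjusted p = 0.00954), and at neither did the days overlap. The third (chr3L:17595596-17596604, 0.22) was lost with 10 of 12 libraries left out in turn (adjusted p up to 0.113), and the call in ftz-f1 with 7 (up to 0.129). Over left-out libraries the higher calls of the list ranged from 4, without H3.3H3.2 day 10 replicate 2, to 12, and it was 5 to 13 under the other settings. Lower calls ranged from 4 to 5 over left-out libraries. The receptor genes EcR and usp had 0 calls among 23 peaks and 1 peak, and Eip75B had 0 of 28.

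Genes of neuronal temporal identity, which mark when in development a neuron is born, had 7 lower and 5 higher calls among 100 peaks, where all tested peaks had 2.32% and 1.13%. Their median log2 change was 0.05, and 40 of the 100 were negative. The lower calls were at dar1, mamo, svp, pros and Imp, and the higher at Eip93F, mamo, dati, sqz and lncRNA:let7C. Imp, an RNA-binding protein high in young neuroblasts and early-born neurons, had 65.7, 85.3 and 119.7 CPM at day 1 and 45.9, 63.0 and 91.3 CPM at day 10 as lowest, median and highest library at chrX:10802015-10802461 and changed by -0.43 ± 0.0769 (SE, adjusted p = 7.98e-04). Within each genotype the days were apart, while the H3.3S31A libraries stood above those of H3.3H3.2. The peak at chr3R:11353466-11353871 in pros, a homeobox factor that ends stem cell division, ran from 72.3 to 91.3 CPM at day 1 and from 46.1 to 62.8 CPM at day 10 and changed by -0.47. Both peaks of svp, a nuclear receptor that switches temporal identity, were lower (chr3R:12278504-12279474, -0.31, and chr3R:12280679-12281208, -0.36). At chr3R:21971142-21971521 in Eip93F, a factor active at the end of metamorphosis, the levels ran from 41.6 to 49.5 CPM at day 1 and from 50.4 to 66.4 CPM at day 10, a change of 0.34. The gene lncRNA:let7C, the host of let-7, miR-100 and miR-125, changed by 0.33 at chr2L:18468745-18469104, a call lost without H3.3H3.2 day 10 replicate 2 (adjusted p = 0.0672), the library without which the list had its fewest higher calls, 3. Among neural progenitor and immature neuron genes, 2 of 28 peaks (7.14%) were called, lower at pros and at esg (chr2L:15333470-15333932, -0.42), a Snail family factor. The median log2 change of that list was 0.06, and only 8 of its 28 peaks were negative, so the list as a whole did not fall.

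Peaks of Polycomb and trithorax group genes, which keep developmental genes silent or active, had 2 lower (3.33%) and 4 higher (6.67%) calls among 60, against 2.32% and 1.13% of all tested peaks, and a median log2 change of -0.0024. The higher calls were at Trl, which encodes the GAGA factor, at psq and at trx, which encodes a histone H3 lysine methyltransferase (chr3R:14278632-14279184, 65.6, 75.7 and 79.9 CPM at day 1 and 81.8, 94.8 and 108 CPM at day 10 as lowest, median and highest library, 0.34). The 2 in Trl changed by 0.29 and 0.26 and were lost without H3.3H3.2 day 10 replicate 2 (adjusted p = 0.0672 and 0.0842), the second also without H3.3H3.2 day 1 replicates 2 or 3. The lower calls were at brm and osa, which encode subunits of the SWI/SNF remodelling complex, and both were lost without H3.3S31A day 10 replicate 3, with an adjusted p of 0.0576 at osa. Pc and ph-p, which encode subunits of the Polycomb complex PRC1, had 0 calls among 3 and 5 peaks.

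Gene lists of mature neuronal function are set beside the 2.32% lower and 1.13% higher calls of all tested peaks. The 110 peaks of voltage-gated and potassium channels had 1 lower call (0.909%), at Shal, and 3 higher (2.73%), at Sh and para. The higher count fell to 0 without H3.3H3.2 day 10 replicate 3 and was 6 with the replicate number as a block within genotype. The 117 peaks of synaptic vesicle and active zone genes had 2 lower calls (1.71%), at Nrx-1 and Frq1, and 0 to 1 with any library left out, 0 without H3.3H3.2 day 1 replicate 2. The 260 peaks of the DIP, dpr, beat and side families, cell surface proteins that match synaptic partners, had 1 lower and 1 higher (near dpr3), 0.385% each, the lower at chrX:3530657-3531122 in DIP-alpha, with 75.3, 88.6 and 97.9 CPM at day 1 and 51.1, 60.7 and 64.8 CPM at day 10 as lowest, median and highest library and a change of -0.55 ± 0.077 (SE, adjusted p = 4.07e-05). Neuropeptides and their receptors had 1 lower call among 62 peaks (1.61%), and neurotransmitter genes 1 lower (Gad1) and 1 higher (Ace) among 33 (3.03% each). Circadian clock genes had 1 lower (2.13%) and 2 higher (4.26%) among 47, all at Pdp1, and activity-regulated factors 0 lower and 1 higher (pum) among 45 (2.22%). The calls in amn, the neuropeptide gene, and Gad1 were lost with 5 and 9 of 12 libraries left out in turn, at an adjusted p of up to 0.0655 and 0.134. Those in Pdp1 were lost with 1 to 8, at up to 0.157, that in pum with 3, at up to 0.0716, and that near dpr3 with 6, at up to 0.125.

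Glial genes had 6 lower calls (14.6%) and 1 higher (2.44%) among 41 peaks, against 2.32% and 1.13% of all tested peaks, with a median log2 change of -0.04 and 4 to 6 lower over left-out libraries. The lower ones were at pnt and svp, described above, NetB (Netrin-B, an axon guidance ligand) and moody, a receptor of the blood-brain barrier, and the higher at ogre, a gap junction protein. The calls at moody and ogre were lost with 6 and 4 libraries left out in turn (adjusted p up to 0.0646 and 0.0693). Among glia markers in the strict sense, 1 of 13 peaks (7.69%) was lower (moody), and pnt, svp and NetB are also used by other cells. Innate immune genes had 2 lower (PGRP-LE and upd3, 7.14%) and 1 higher (spz, 3.57%) among 28 peaks. The calls in upd3 and spz were lost with 2 and 6 libraries left out in turn (adjusted p up to 0.0541 and 0.109). Heat shock proteins had 0 calls among 18 peaks, insulin and TOR signalling genes 0 of 45, and H3.3 and its chaperones 0 of 16. Only 17 of 45 listed innate immune, 14 of 22 heat shock and 20 of 31 insulin and TOR genes had a peak. The Hsp70 genes, Drs and Thor were among those without one, and such genes were not tested. Neuron markers had 1 lower (1.47%) and 3 higher (4.41%) calls among 68 peaks, with 1 higher without H3.3H3.2 day 1 replicate 1, photoreceptor and eye markers 2 lower among 20 (gl and ey, 10.0%), haemocyte markers 1 lower among 25 (ush, 4%, lost with 9 libraries left out, adjusted p up to 0.111), and muscle, fat body and trachea markers 0 among 7, 14 and 8. The call in ey was lost with 5 libraries left out in turn (adjusted p up to 0.112).

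**Figure D4:**
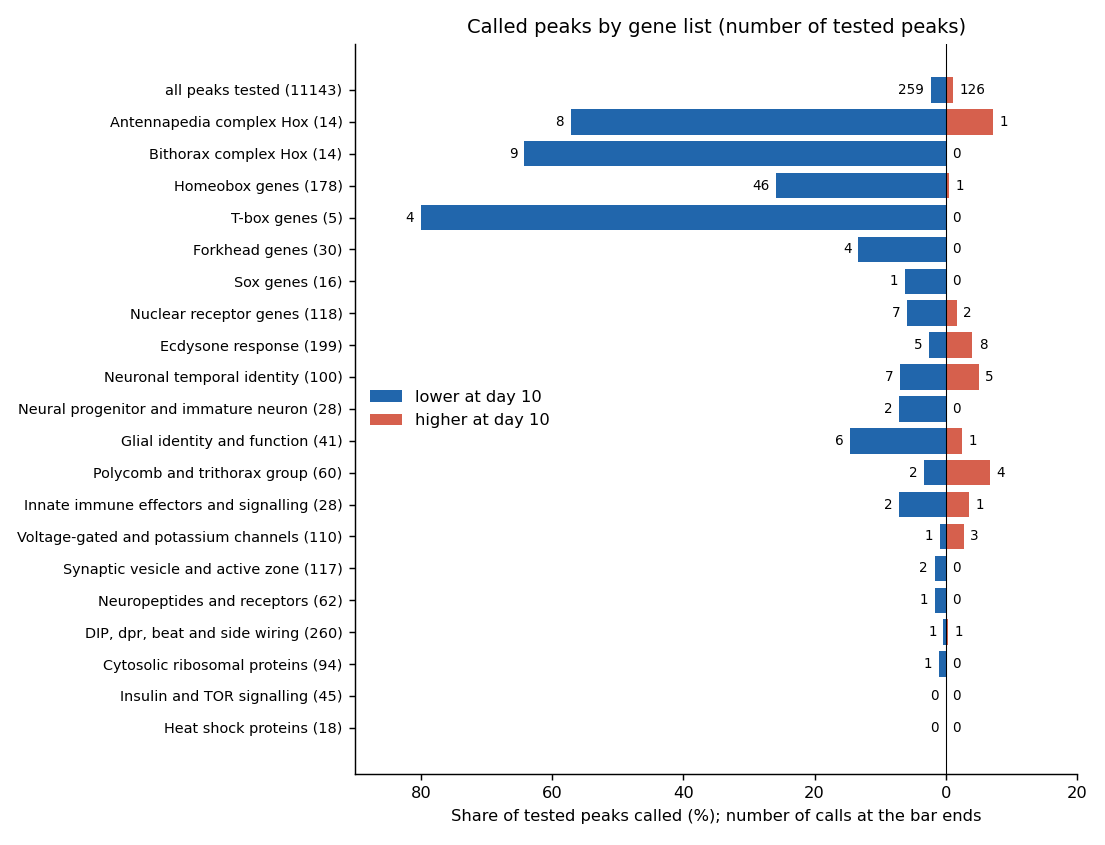
Share of tested peaks called lower (blue, to the left) and higher (red, to the right) at day 10 in each gene list, in percent, with the number of tested peaks in brackets and the number of calls at the bar ends. The Hox, homeobox and T-box lists reach from 25.8% lower (homeobox) to 64.3% (Bithorax complex) and above (T-box), against 2.32% of all tested peaks. The homeobox list includes the Hox genes.

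The genes that encode H3.3, His3.3A and His3.3B, did not give a call. At His3.3A, 2 peaks had log2 changes of 0.11 and -0.03 (adjusted p = 0.754 and 0.933), and at His3.3B, 3 peaks had log2 changes of 0.23, 0.04 and 0.01 (adjusted p = 0.0558, 0.908 and 0.973). The first His3.3B peak (chrX:9152177-9152538) ran from 68.5 to 79.7 CPM at day 1 and from 79.7 to 101 CPM at day 10 and passed the threshold with library totals alone, with loess offsets, by DESeq2, and without H3.3S31A day 10 replicate 2 or day 1 replicate 3. These peaks do not check the labels, since the labels do not say which of these genes or which bases were changed.

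By position, higher and lower calls differed from all peaks in different ways. Of all tested peaks, 37.3% had their centre within 500 bp of a gene end, 42.4% lay elsewhere inside a gene and 20.4% between genes. Lower calls were 27.8% at gene ends, 48.3% inside genes and 23.9% between genes. Higher calls were 18.3% at gene ends, 68.3% inside genes and 13.5% between genes. Median width was 486 bp for lower and 528.5 bp for higher calls, against 454 bp, and median levels were 77.2 and 69.5 CPM against 60.7 CPM. Within 50 kb of 125 of the 259 lower calls (48.3%) lay another lower call, against 15.2% of all tested peaks, and of 41 of the 126 higher calls (32.5%) another higher one, against 10.9%. Outside the Hox genes, genes with all of their peaks called lower included pnt, svp, tj and sens-2 with 2 of 2 each, and lov and L had 3 of 4.

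The pooling gave calls that neither genotype gave alone. In H3.3H3.2, 62 peaks (0.556%) were called, 53 lower (0.476%) and 9 higher (0.0808%), while H3.3S31A gave 115 (1.03%), 95 lower (0.853%) and 20 higher (0.179%). The order of these counts turned with the model: fitted on its own 6 libraries, H3.3H3.2 gave 134 calls and H3.3S31A 41. Leaving out 1 library of the genotype gave 16 (without day 10 replicate 1 or 3) to 28 calls in H3.3H3.2, and 21 (without day 10 replicate 3) to 115 in H3.3S31A, where leaving out day 1 replicates 1 or 2 gave 54 and 50. Of the pooled calls, 147 lower and 108 higher were called in neither genotype by itself, where the median standard error was 0.12 instead of 0.085. All 259 lower calls had a negative change in both genotypes and all 126 higher calls a positive one, a direction that the pooled call largely fixes. With H3.3H3.2 first and H3.3S31A second, the change at Scr was -0.95 and -0.88, at dar1 -1.09 and -1.27, and at mam 0.41 and 0.46. The test of the difference between the genotypes' changes gave 0 calls in edgeR and 0 in DESeq2 (smallest adjusted p = 0.412 in edgeR, 410 peaks at an unadjusted p under 0.05). With a median standard error of 0.17 for that difference, the 95% interval at a typical peak reached 0.33 to either side. A call after adjustment over all tested peaks needs a larger difference, so differences above that size could also be missed.

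The libraries of OreR and H3.3null took no part in these calls, share none of the 12 libraries and gave the same contrast of days. In OreR, 213 of 11145 peaks (1.91%) were called, 133 lower (1.19%) and 80 higher (0.718%), and in H3.3null 103 (0.924%), 60 lower (0.538%) and 43 higher (0.386%), in a model of all 24 libraries, whose estimate of the spread also draws on the 12 compared here. Leaving out 1 library gave 90 (without day 10 replicate 1) to 174 calls in OreR and 32 (without day 1 replicate 2) to 78 in H3.3null. Each of these comparisons has 3 libraries per day, with a median standard error of 0.12, against 0.085 in the pooled comparison. Counts of calls and of shared calls therefore do not rest on equal precision. At the 259 lower peaks, the OreR change was negative in 254 and called lower in 101, with a median of -0.36, while 52.9% of all tested peaks had a negative sign. The H3.3null change was negative in 238 of them, called lower in 40 and called higher in 1, with a median of -0.28, against 46.4% negative signs over all peaks. At the 126 higher peaks, the OreR change was positive in 120 and called higher in 27 (median 0.27), and the H3.3null change was positive in 109 and called higher in 5 (median 0.14). The 101 shared lower calls were 39.0% of the pooled and 75.9% of the OreR lower calls, and the 27 shared higher calls were 21.4% and 33.8%. For H3.3null the 40 shared lower calls were 15.4% and 66.7%, and the 5 shared higher calls 3.97% and 11.6%. Across the 11143 peaks, log2 changes had a Pearson's r of 0.54 with OreR and 0.36 with H3.3null, a description of these libraries across peaks that share a peak set and its base composition.

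At the leading lower peaks the changes were also negative in OreR and H3.3null, but not all were called. In H3.3null, those near OdsH (-0.36, adjusted p = 0.0593), near foxo (-0.31, 0.113) and in Mur2B (-0.31, 0.135) were among the misses. The iab peak at chr3R:16886391-16886824 (-0.56, 0.0571) also missed there. Mur2B was not called in OreR either (-0.33, adjusted p = 0.0720). The Scr peak at chr3R:6848483-6849007 held 72.6, 66.9 and 69.4 CPM at day 1 and 37.7, 42.0 and 38.2 CPM at day 10 in OreR (-0.82 ± 0.105 SE, adjusted p = 8.83e-06). In H3.3null it held 104, 104 and 114 CPM at day 1 and 66.6, 58.8 and 56.5 CPM at day 10 (-0.83 ± 0.0982 SE, adjusted p = 2.54e-06). The dar1 peak held 49.0, 44.8 and 44.0 CPM at day 1 and 21.7, 24.3 and 23.4 CPM at day 10 in OreR and 52.3, 56.4 and 54.1 CPM at day 1 and 34.8, 30.4 and 38.8 CPM at day 10 in H3.3null, with changes of -0.99 and -0.64. At none of the leading lower peaks described above did the days overlap in OreR. The 3 OreR libraries of day 10 lay below the 3 of day 1 at 185 of the 259 lower calls and at 881 of all 11143 tested peaks. In H3.3null the same held at 147 and 925.

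The Hr4 peak at chrX:1988557-1989362 held 239.6, 233 and 217 CPM at day 1 and 95.9, 118 and 145 CPM at day 10 in H3.3null, with a change of -0.93, against -0.59 in OreR and -0.58 in the pooled genotypes. The day 1 level was higher in H3.3null than in the other 3 genotypes, and the difference between the pooled and the H3.3null change was 0.36 ± 0.127 (SE, adjusted p = 0.65). The medians over the Antennapedia and Bithorax intervals were -0.32 and -0.26 in OreR and -0.26 and -0.32 in H3.3null, beside -0.34 and -0.25 in the pooled genotypes. For mam the OreR change was 0.40 and the H3.3null change 0.31, and for fne 0.65 and 0.19.

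**Figure D5:**
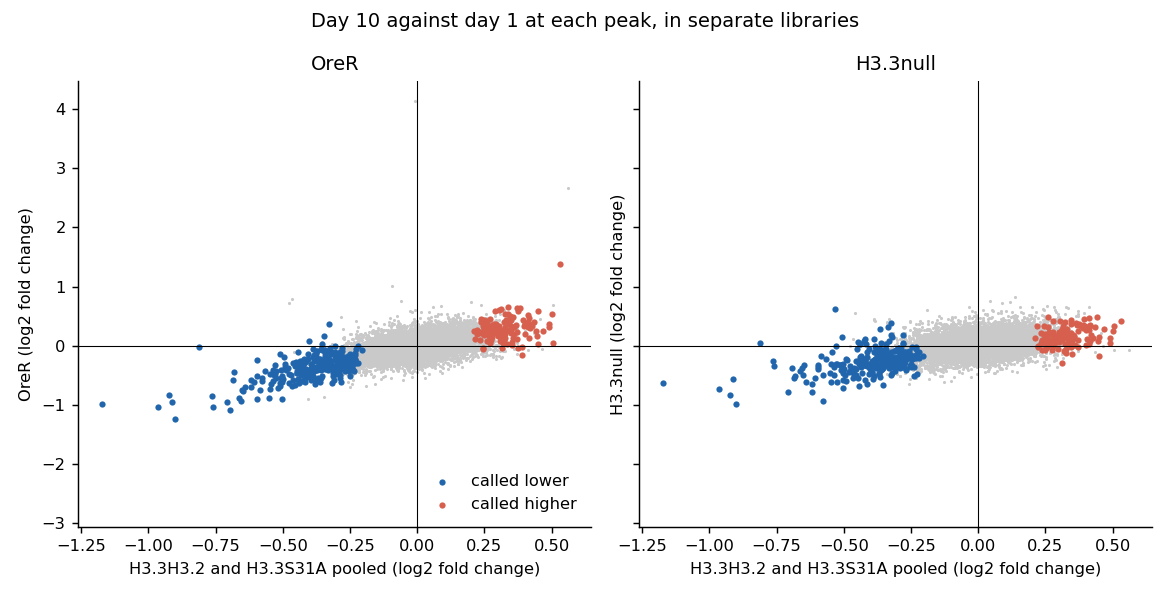
Log2 fold change of day 10 against day 1 at each tested peak in OreR (left, y axis) and in H3.3null (right, y axis) against that of H3.3H3.2 and H3.3S31A pooled (x axis). Most lower calls of the pooled comparison (blue) lie below 0 and most higher calls (red) above 0 in both panels, with medians at the lower calls of -0.36 in OreR and -0.28 in H3.3null.

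Few peaks could be told to change by a different amount in the pooled genotypes than in the others. Against OreR, 0 peaks had a called difference in edgeR and 1 in DESeq2 (smallest adjusted p in edgeR 0.213, 363 peaks at an unadjusted p under 0.05). Against H3.3null, 2 peaks (0.0179%), 1 in each direction (0.00897%), had one in edgeR and 6 in DESeq2, with 713 peaks at an unadjusted p under 0.05. Leaving out 1 library gave 0 calls without H3.3null day 10 replicates 1 or 2 or day 1 replicate 1, and up to 10, without H3.3H3.2 day 1 replicate 3. With a median standard error of 0.15, a difference below 0.30 at a typical peak lay within the 95% interval, so misses here do not show that the changes were alike. The peak with the smaller p lay 17410 bp from CG3347 (chr2L:3251551-3252027), with 105, 101 and 68.2 CPM in H3.3H3.2 and 81.4, 76.3 and 63.1 CPM in H3.3S31A at day 1 and 58.3, 61.0 and 63.5 CPM and 61.8, 50.6 and 47.1 CPM at day 10. There the pooled genotypes fell (-0.53), while H3.3null held 36.1, 46.5 and 44.9 CPM at day 1 and 71.2, 71.8 and 54.6 CPM at day 10 (0.62), a difference of -1.14 ± 0.187 (SE, adjusted p = 0.00836). The days did not overlap within any of these 3 genotypes, and H3.3null started lower. The other was the peak near CG40498 (chr2R:953967-954402), where H3.3null held 192, 166 and 184 CPM at day 1 and 144, 168 and 166 CPM at day 10, a change of -0.18 against 0.45 in the pooled genotypes and a difference of 0.63 ± 0.123 (SE, adjusted p = 0.0493). At this peak OreR held 57.1, 43.4 and 51.9 CPM at day 1 and 70.8, 77.3 and 80.2 CPM at day 10 (0.59), a level below that of the other genotypes at both days.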

How the data were processed

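ATAC-seq was done on adult female brains, and the labels' extraction text describes an RNA preparation although the molecule is given as genomic DNA, so the preparation is not settled by the labels. The deposited values are read counts per peak in 1 peak set for all 24 libraries, whole numbers with no normalization. Per the submitters' processing notes, the tools included STAR 2.7.7a, SAMtools 1.9, bedtools 2.26, deepTools 3.2.0, featureCounts of Subread 2.0.1 and DESeq2 1.34.0, with the build dm6. The peak caller, the handling of duplicates and any shift of reads for transposase insertion are not given in the sources used here. Levels in CPM were computed here from the deposited counts, with TMM factors over the 24 libraries.

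The main test was edgeR 4.0.16 (R 4.3.3), robust quasi-likelihood, TMM, filterByExpr (2 peaks removed of 11145), with genotype and day as terms on 12 libraries and 9 residual degrees of freedom. Calls are at an adjusted p (Benjamini-Hochberg, over all tested peaks) under 0.05. Changes in single genotypes came from the fits with an interaction (H3.3H3.2, H3.3S31A) or of 24 libraries (OreR, H3.3null). Alternatives used DESeq2 1.42.0, limma 3.58.1 (voom), other scalings, filters, replicate blocks and leaving out each library. Scripts were tested on simulated data. The median count per peak and library was 259, and the biological coefficient of variation was 8.95%.

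Peaks were assigned to RefSeq Release 6 genes that they overlap or whose end lies within 1000 bp, otherwise named by distance to the nearest coding gene, and coordinates are as the deposited file gives them. That table has no exons, so peaks are placed only at gene ends, inside genes or between genes. Peaks named were the 15 lower and 10 higher of smallest p without overlap in both genotypes, the 3 largest changes each way, up to 3 per gene list and all at His3.3A and His3.3B. Further peaks, among them those in ems, Imp and others outside this rule, and the 5 factor families were chosen after values were seen. Members and lists were chosen with earlier results of these data known.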

Additional observations from a re-analysis of the deposited data

Results flagged for a closer look

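At 2 peaks the change from day 1 to day 10 differed between the pooled genotypes and H3.3null by the test of the difference itself (edgeR's quasi-likelihood test, Benjamini-Hochberg adjustment). At chr2L:3251551-3252027, near CG3347, the difference was -1.14 on the log2 scale (adjusted p = 0.00836), the pooled genotypes changing by -0.53 and H3.3null by 0.62. At chr2R:953967-954402, near CG40498, it was 0.635 (adjusted p = 0.0493), with 0.45 in the pooled genotypes and -0.18 in H3.3null.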

How the results depend on the processing

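The pooled count of 385 calls stayed within 1.5 times in every refit: 378 to 444 under another scaling, filter, tool or all 24 libraries, and 289 (without H3.3S31A day 1 replicate 2) to 393 with 1 library left out. A stricter adjusted p under 0.01 left 187 calls, and a log2 fold change of at least 0.5 left 51. With library totals alone, 229 fell and 169 rose. Replicate numbers did not pair the samples (correlations of deviations from -0.238 to 0.243 for same-numbered libraries, 2 of 6 best with their own number), and a replicate block gave 370 calls within genotype and 395 with shared numbers. A block gave 139 calls in OreR, 63 in H3.3null and 1 for the difference from H3.3null. Fits of 6 libraries gave 134 calls for H3.3H3.2 but 41 for H3.3S31A, and the cause was not tested. With 1 library left out the counts were 16 to 28 for H3.3H3.2, 21 to 115 in H3.3S31A, 90 to 174 in OreR, 32 to 78 in H3.3null, 0 to 1 for the difference from OreR and 0 to 10 for that from H3.3null, where DESeq2 gave 1 and 6. The interaction gave 0 calls in every refit run. Of 107 named called peaks, 78 kept their call with each of 12 libraries left out and 29 lost it at least once, and no named peak changed direction. Differences between genotypes below about 0.30 to 0.33 on the log2 scale lay within the unadjusted 95% interval at a typical peak. Larger differences could also be missed after adjustment over all tested peaks.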
